A study of Mus musculus with 4 samples.

Results

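Lin28a, Lin28b, Hmga2, Igf2bp1, Igf2bp2, Igf2bp3, Prtg, Wfikkn1 and Hic1 are 9 mouse genes of the Lin28 and let-7 pathway and of early embryonic patterning. They were looked up by gene name in the array annotation and had been chosen by the measured difference between the embryonic stages of the series, so that difference is described here without a test. They have 19 probes on the array and are 9 of the 17129 genes tested. A total of 18 of the 19 probes were kept, because 1 Prtg probe carried an outlier mark, and all 9 genes stayed in the tests. The series measured RNA of Nxn-null embryos (genotype NRX -/-, called KD in the sample titles) at the embryonic stage E11.5 (embryonic day), wild-type embryos (NRX +/+) at E11.5, Nxn-null embryos at E9.5 and wild-type embryos at E9.5, all labelled C57BL/6J and untreated. NRX is nucleoredoxin, a thioredoxin-related protein encoded by Nxn, and the series title names Wnt/beta-catenin signalling as its subject. Each of the 4 two-colour arrays paired Nxn-null with stage-matched wild-type RNA. The dyes were exchanged between the 2 arrays of a stage, Cy5 marking the Nxn-null RNA on replicate 1 and Cy3 marking it on replicate 2. Separate RNA extracts and the number of embryos behind each RNA are not given in the sources used here, so all p-values measure the spread between arrays, which may be technical.

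Lin28a and Lin28b are RNA-binding proteins that bind precursors of the let-7 microRNAs and keep them from maturing. They are high in stem cells and young embryos, let-7 rises as they decline, and mature let-7 in turn represses Lin28a, Lin28b, Hmga2 and the Igf2bp genes. The pathway is also known from the worm Caenorhabditis elegans, where lin-28 and let-7 set the timing of larval stages. Hmga2 is a chromatin protein that bends DNA. Igf2bp1, Igf2bp2 and Igf2bp3 bind and stabilise messenger RNAs. Prtg (protogenin) is a cell surface receptor of the immunoglobulin superfamily found in early neural tube and mesoderm. Wfikkn1 is a secreted protein that binds the growth factors Gdf11 and myostatin. Hic1 is a transcriptional repressor of the zinc finger type that appears in mesenchyme.

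The let-7 microRNAs were not measured on these arrays, and their sequences are shown because they define the pathway. In the RefSeq table of build GRCm38.p6, 11 mature microRNA names from 13 loci carry the let-7 seed GAGGUAG at bases 2 to 8. Of these, 4 are printed 5′ to 3′ with the seed in capitals, and they differ only outside it.
mmu-let-7a-5p: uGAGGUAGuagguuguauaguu
mmu-let-7c-5p: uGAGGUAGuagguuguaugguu
mmu-let-7g-5p: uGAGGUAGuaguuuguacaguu
mmu-miR-98-5p: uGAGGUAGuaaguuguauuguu

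The promoters of the 5 genes that differed most between the stages are printed 5′ to 3′ from the RefSeq table of GRCm38.p6, from 250 bases before to 50 bases after the annotated start. Capitals mark exact matches, on either strand, to CACGTG (the E-box), GGGCGG (the GC box), TATAAA (the TATA box), CCAAT (the CCAAT box) and CTTTGA (core of the TCF/LEF motif, the DNA partner of beta-catenin). No base was shared between matches in any promoter of the 9 genes. A match is a run of letters and not a known binding site.
Lin28a, chr4:134018767-134019066, minus strand: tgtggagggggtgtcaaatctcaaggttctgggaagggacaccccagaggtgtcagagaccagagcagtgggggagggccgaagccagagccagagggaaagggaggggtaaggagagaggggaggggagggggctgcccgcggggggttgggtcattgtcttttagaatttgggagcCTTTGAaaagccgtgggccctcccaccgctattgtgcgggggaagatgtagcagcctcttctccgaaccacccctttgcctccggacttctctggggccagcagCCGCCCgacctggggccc
Lin28b, chr10:45470152-45470451, minus strand: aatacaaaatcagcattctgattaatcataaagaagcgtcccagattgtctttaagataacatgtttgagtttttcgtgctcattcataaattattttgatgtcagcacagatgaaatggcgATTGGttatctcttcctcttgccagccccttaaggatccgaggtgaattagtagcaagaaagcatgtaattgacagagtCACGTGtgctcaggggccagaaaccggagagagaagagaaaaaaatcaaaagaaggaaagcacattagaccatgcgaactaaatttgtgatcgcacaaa
Prtg, chr9:72807024-72807323, plus strand: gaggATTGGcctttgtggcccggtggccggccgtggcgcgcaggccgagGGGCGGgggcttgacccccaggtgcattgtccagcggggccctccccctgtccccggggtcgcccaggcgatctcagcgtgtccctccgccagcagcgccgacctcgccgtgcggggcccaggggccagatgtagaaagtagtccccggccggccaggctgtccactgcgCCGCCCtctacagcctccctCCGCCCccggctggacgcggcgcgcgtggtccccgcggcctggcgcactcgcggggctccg
Wfikkn1, chr17:25880809-25881108, minus strand: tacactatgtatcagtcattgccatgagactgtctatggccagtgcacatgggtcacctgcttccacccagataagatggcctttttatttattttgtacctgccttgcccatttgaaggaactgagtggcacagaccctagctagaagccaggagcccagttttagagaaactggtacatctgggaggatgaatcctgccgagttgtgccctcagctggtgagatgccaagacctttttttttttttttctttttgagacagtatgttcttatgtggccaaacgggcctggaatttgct
Hic1 first entry, chr11:75170206-75170505, minus strand: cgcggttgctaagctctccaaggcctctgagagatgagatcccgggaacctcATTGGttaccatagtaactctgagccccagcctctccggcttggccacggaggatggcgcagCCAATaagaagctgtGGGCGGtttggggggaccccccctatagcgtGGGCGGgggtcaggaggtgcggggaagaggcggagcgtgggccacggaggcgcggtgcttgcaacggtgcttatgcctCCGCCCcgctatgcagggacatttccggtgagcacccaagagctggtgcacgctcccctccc
Hic1 second entry, chr11:75168103-75168402, minus strand: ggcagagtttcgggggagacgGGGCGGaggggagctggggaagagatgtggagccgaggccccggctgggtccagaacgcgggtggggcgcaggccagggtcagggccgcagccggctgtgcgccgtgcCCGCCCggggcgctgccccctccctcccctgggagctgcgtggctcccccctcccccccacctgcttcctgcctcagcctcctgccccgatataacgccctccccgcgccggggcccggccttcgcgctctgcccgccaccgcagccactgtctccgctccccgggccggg

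The promoters share no motif across all 5 genes. Lin28a has 1 CTTTGA, at position -72 with the start as 0, and 1 GC box at position 32. Lin28b has 1 E-box, at -49, and 1 CCAAT box. Prtg has 3 GC boxes and 1 CCAAT box, and the first Hic1 entry has 3 GC boxes and 2 CCAAT boxes. No match lies in the Wfikkn1 window, which says only that these letters are absent there. Of all 32851 promoters in the table, 7.15% hold CACGTG, 35.7% GGGCGG, 13.6% TATAAA, 37.4% CCAAT and 16% CTTTGA. Of the 9 genes, 8 have a promoter entry.

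The labelled genotype was checked on Nxn, which was lower in Nxn-null RNA on all 4 arrays. Its log2 ratio of Nxn-null over wild type was -1.24 and -1.42 at E11.5 (39.8% of the wild-type level on average) and -1.04 and -0.93 at E9.5 (50.4%). Where this probe lies relative to the disruption is not stated. Between 51.5% and 69.7% of gene spots were well above background in the Nxn-null channels and between 48.2% and 70.3% in the wild-type channels. The genotype ratios of the 2 arrays of a stage had a correlation of 0.26 at E11.5 and 0.48 at E9.5, and arrays of equal dye orientation from the 2 stages had 0.34 for replicate 1 and 0.36 for replicate 2, over genes that are not independent.

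Between the stages, the 9 genes fell into 3 patterns on their brightest probes under the processing used here. Lin28a, Lin28b, Prtg and Wfikkn1 were 4.83- to 9.05-fold lower at E11.5 than at E9.5 in both genotypes. Hic1 was 8.60-fold higher at E11.5 in Nxn-null RNA and higher still in wild-type RNA (log2 difference 3.46). Hmga2 and the 3 Igf2bp genes were 1.03- to 1.67-fold lower. Among all 17129 genes, 0.747% were at least 2-fold lower in Nxn-null RNA, 1.53% in wild-type RNA and 0.52% in both. At least 2-fold higher were 2.69% in Nxn-null RNA, 3.15% in wild-type RNA and 2.06% in both, and these shares describe the array and not the 9 genes, since the stage difference chose them. Levels below are log2 single-channel intensities of the gene's brightest probe after normalization, given for replicates 1 and 2 in that order, and levels of different genes are not comparable.

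Lin28a was lower at E11.5 in both genotypes. At E11.5 its level was 7.78 and 7.75 in Nxn-null RNA and 7.38 and 7.48 in wild-type RNA. At E9.5 its level was 10.52 and 10.53 in Nxn-null RNA and 10.85 and 10.37 in wild-type RNA. Every E11.5 channel was below every E9.5 channel. The difference, E11.5 minus E9.5, was -2.76 ± 0.03 in Nxn-null RNA and -3.18 ± 0.40 in wild-type RNA (SD, n = 2 dye-matched differences), which is 6.75-fold and 9.05-fold lower. The wild-type E11.5 signal was well above background on 1 of 2 arrays, so that level is close to the limit of the probe. With the processed signals of Feature Extraction in place of normexp with an offset, the differences were -3.82 and -4.96.

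Lin28b, the paralogue of Lin28a, was lower at E11.5 to a smaller extent on its brightest probe. Its level was 10.19 and 10.18 in Nxn-null RNA and 9.98 and 10.02 in wild-type RNA at E11.5, against 12.44 and 12.48 in Nxn-null RNA and 12.46 and 12.34 in wild-type RNA at E9.5. The stages did not overlap in either genotype, and all channels were well above background. The difference was -2.27 ± 0.03 in Nxn-null RNA and -2.40 ± 0.11 in wild-type RNA (SD, n = 2 dye-matched differences), or 4.83-fold and 5.27-fold lower.

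Prtg had nearly the same stage difference in the genotypes. Its level was 8.83 and 8.98 in Nxn-null RNA and 8.88 and 8.76 in wild-type RNA at E11.5, against 11.80 and 12.02 in Nxn-null RNA and 12.04 and 11.68 in wild-type RNA at E9.5. All E11.5 channels lay far below all E9.5 channels. The difference was -3.01 ± 0.05 in Nxn-null RNA and -3.04 ± 0.17 in wild-type RNA (SD, n = 2 dye-matched differences), or 8.04-fold and 8.23-fold lower.

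Wfikkn1 was lower at E11.5 by a similar amount in both genotypes. It stood at 7.37 and 7.30 in Nxn-null RNA and 7.16 and 7.21 in wild-type RNA at E11.5, against 9.93 and 9.87 in Nxn-null RNA and 9.84 and 9.60 in wild-type RNA at E9.5. The stages did not overlap, and the wild-type E11.5 signal was well above background on 1 of 2 arrays. The difference was -2.57 ± 0.01 in Nxn-null RNA and -2.54 ± 0.21 in wild-type RNA (SD, n = 2 dye-matched differences), or 5.92-fold and 5.80-fold lower. With the processed signals the differences were -4.17 and -4.81.

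Hic1 ran the other way. Its level was 12.14 and 12.20 in Nxn-null RNA and 12.45 and 12.37 in wild-type RNA at E11.5, against 9.19 and 8.94 in Nxn-null RNA and 8.91 and 8.99 in wild-type RNA at E9.5. Every E11.5 channel was above every E9.5 channel, and all were well above background. The difference was 3.104 ± 0.22 in Nxn-null RNA and 3.46 ± 0.11 in wild-type RNA (SD, n = 2 dye-matched differences).

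The mRNA-binding Igf2bp genes were lower at E11.5 by less than 2-fold on their brightest probes under the processing used here. Over all settings tried, the Nxn-null difference reached -1.03 for Igf2bp1 and -1.09 for Igf2bp3, beyond 2-fold. It stayed within 2-fold for Igf2bp2 and for all of them in wild-type RNA. Igf2bp1 stood at 12.58 and 12.74 in Nxn-null RNA and 12.65 and 12.56 in wild-type RNA at E11.5, against 13.31 and 13.32 in Nxn-null RNA and 13.18 and 12.92 in wild-type RNA at E9.5. Igf2bp3 stood at 12.48 and 12.66 in Nxn-null RNA and 12.74 and 12.48 in wild-type RNA at E11.5, against 13.14 and 13.47 in Nxn-null RNA and 13.21 and 13.02 in wild-type RNA at E9.5. In both genes each genotype's E11.5 channels lay below its E9.5 channels. Igf2bp2 had the smallest stage difference of the family in Nxn-null RNA, with 11.98 and 11.90 in Nxn-null RNA and 11.87 and 11.80 in wild-type RNA at E11.5, against 12.19 and 12.30 in Nxn-null RNA and 12.35 and 12.24 in wild-type RNA at E9.5. Its stages did not overlap either. The differences in Nxn-null and wild-type RNA were -0.65 ± 0.10 and -0.45 ± 0.12 for Igf2bp1, -0.30 ± 0.14 and -0.46 ± 0.04 for Igf2bp2, and -0.74 ± 0.11 and -0.51 ± 0.05 for Igf2bp3 (SD, n = 2 dye-matched differences).

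Hmga2 did not follow the label of a gene that changes between the stages. Its level was 14.42 and 14.26 in Nxn-null RNA and 14.21 and 14.48 in wild-type RNA at E11.5, against 14.45 and 14.33 in Nxn-null RNA and 14.34 and 14.62 in wild-type RNA at E9.5. The stages overlapped in both genotypes, with differences of -0.05 ± 0.03 in Nxn-null RNA and -0.14 ± 0.01 in wild-type RNA (SD, n = 2 dye-matched differences). The dye-matched differences were -0.03 and -0.07 in Nxn-null RNA and -0.13 and -0.14 in wild-type RNA. Between the 2 wild-type arrays of a stage the SD was larger, 0.19 at E11.5 and 0.20 at E9.5. Those 2 arrays carry opposite dyes, so this SD and the overlap include any dye effect. The Nxn-null difference was 0.0214 with median centring. So 8 of the 9 genes had stages that did not overlap in either genotype, 7 of them lower at E11.5 and 1 higher, against 28% of all genes that were lower and 26% that were higher without overlap. With only 2 arrays a stage, absence of overlap is common.

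**Figure D1:**
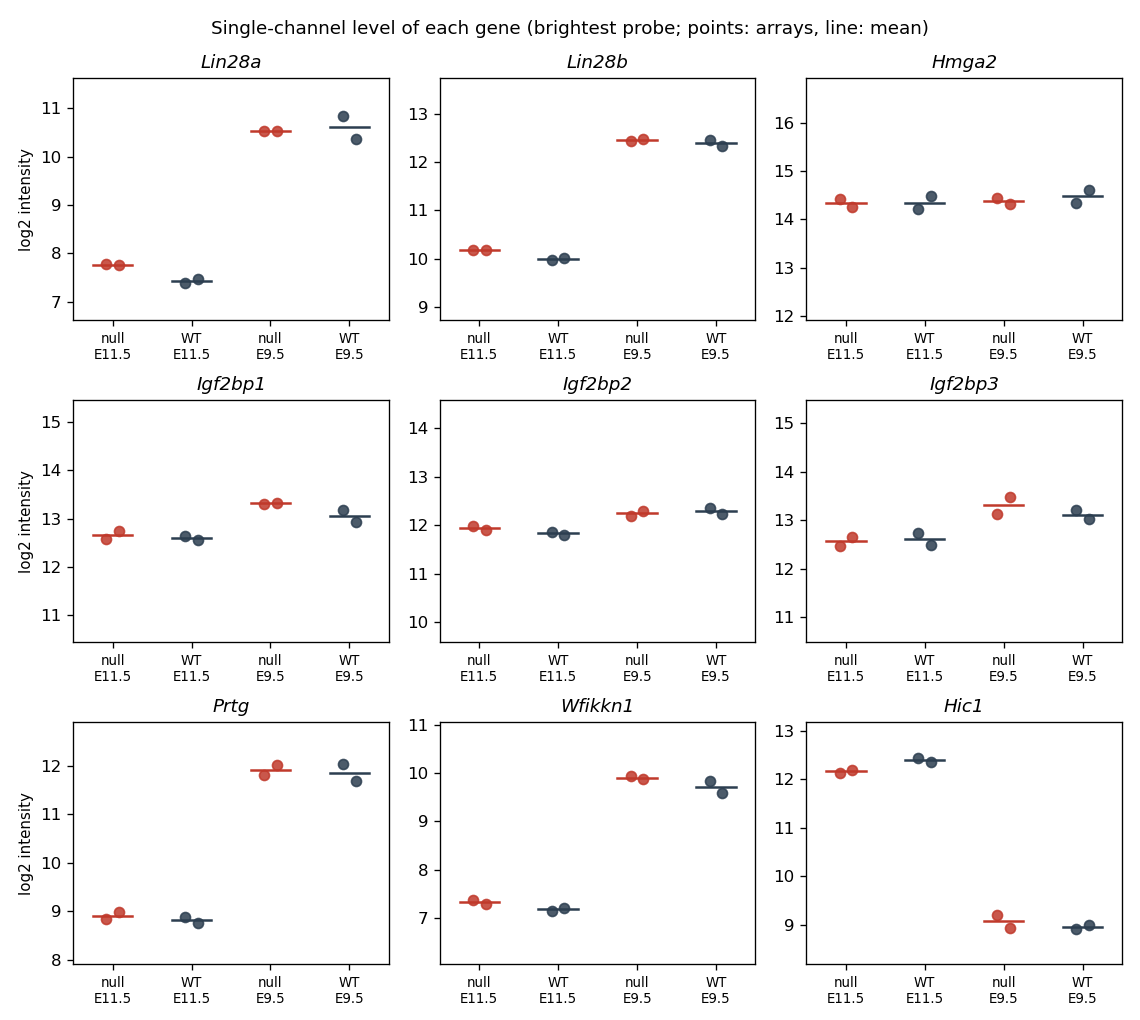
Log2 single-channel intensity (vertical axis) of the brightest probe of each gene in Nxn-null and wild-type RNA at E11.5 and then at E9.5; points are arrays and lines are means of 2 arrays, and every panel spans the same number of log2 units around its own centre. Lin28a, Lin28b, Prtg and Wfikkn1 sit low at E11.5, Hic1 sits high there, and Hmga2 stays level.

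The plot of levels by group shows that both stage gaps were larger than both genotype gaps for each gene except Hmga2. For Hmga2 the mean stage differences were -0.05 in Nxn-null RNA and -0.14 in wild-type RNA. Its mean genotype ratios were -0.0030 at E11.5 and -0.09 at E9.5, so only the Nxn-null stage gap was smaller than the E9.5 genotype gap. Seen over the 8 channels, each gene centred on its own mean, the 4 strongly lower genes lay close to each other, as their grouping by the stage difference sets in advance. The root mean square difference was 0.14 between Lin28a and Prtg, 0.12 between Lin28b and Wfikkn1 and 0.34 between Lin28a and Lin28b, and it was 3.14 between Lin28a and Hic1. Among genes outside the 9, the profile nearest to Lin28a was that of Igdcc3 (0.47), a receptor related to Prtg. Sall4, a zinc finger factor of pluripotent cells, was next (0.52), then TC1454733, known only by its array name (0.53), the urea cycle enzyme Arg1 (0.60) and the acyltransferase Mogat2 (0.62). Nearest to Lin28b were Igdcc3 (0.19), Sall4 (0.21), TC1454733 (0.23), Arg1 (0.32) and NAP023895-001, also without a gene symbol (0.34). The median over all genes was 1.49 to Lin28a and 1.17 to Lin28b. The stage difference dominates these 8 values, and the channels share arrays and hybridisations. Since the 9 genes were chosen and grouped by that difference, the distances among them, Hic1 included, add no separate support.

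Other probes of the same genes gave the same direction between stages. The 2 dimmer Lin28b probes were well above background on no Nxn-null array at E11.5, so in Nxn-null RNA at most bounds can be given. The probe above background on 2 of 2 Nxn-null E9.5 arrays was at least 1.40-fold lower than at E9.5, against 4.83-fold on the brightest probe. The other gave 1.27-fold, but it was above background on 1 of 2 Nxn-null E9.5 arrays, so this value is not a firm bound. In wild-type RNA the same 2 probes had differences of -0.62 and -0.62, with 1 of 2 E11.5 arrays above background. The mean over all 3 Lin28b probes gave -1.04 in Nxn-null RNA and -1.21 in wild-type RNA. For Prtg, the dimmest probe was at least 3.15-fold lower in Nxn-null RNA, and the probe with an outlier mark had differences of -2.96 in Nxn-null RNA and -3.48 in wild-type RNA. The other 2 Igf2bp1 probes showed larger differences than the brightest, at -0.94 and -0.87 in Nxn-null RNA and -0.96 and -0.83 in wild-type RNA. The other 2 Igf2bp3 probes showed smaller ones, at -0.43 and -0.39 in Nxn-null RNA and -0.36 and -0.20 in wild-type RNA. All 3 Hmga2 probes had differences between -0.05 and -0.32. Lin28a, Igf2bp2, Wfikkn1 and Hic1 each had 1 probe.

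**Figure D2:**
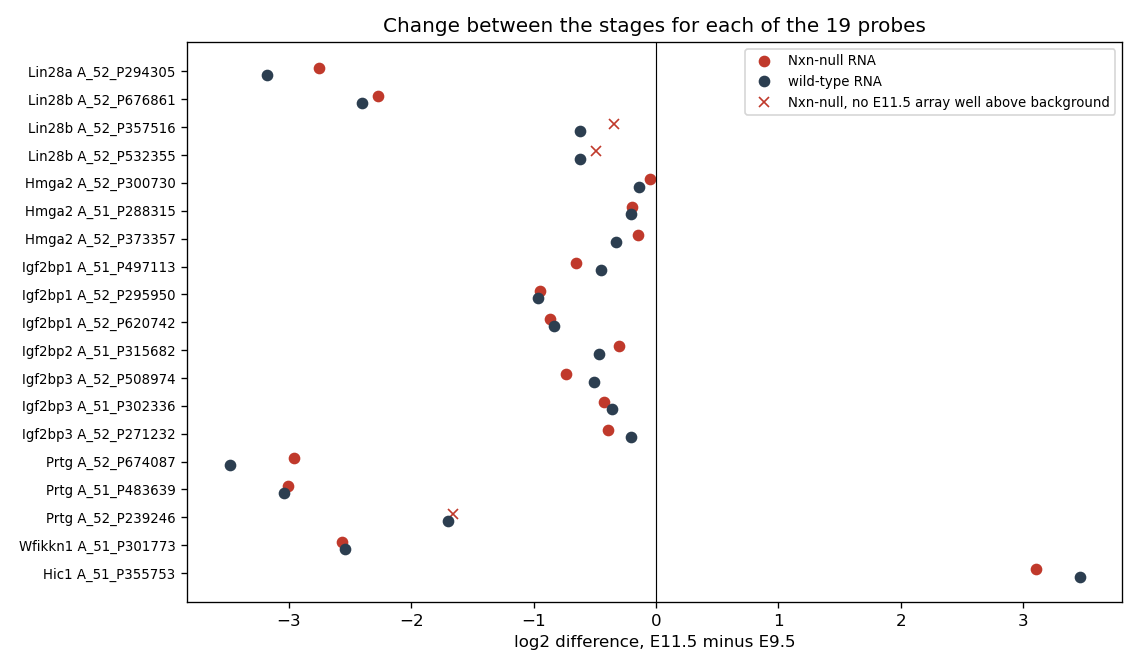
Log2 difference of E11.5 minus E9.5 (horizontal axis) for each of the 19 probes in Nxn-null RNA and wild-type RNA, as means of 2 arrays; crosses mark Nxn-null values whose E11.5 signal was well above background on no array. The brightest Lin28b probe lies at -2.27 and -2.40; the crosses of the dim Lin28b and Prtg probes are limited by background at E11.5 and can at most be read as bounds.

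In the plot by probe, the dim Lin28b and Prtg probes are at or near background at E11.5, so their sizes cannot be set against those of the bright probes. A bound is the mean level at E9.5 over the higher of the dim probe's own level and the lowest signal well above background on each E11.5 array.

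For the genotype, the values are log2 ratios of Nxn-null over wild type within an array, so a positive value is higher in Nxn-null RNA. At E11.5, Lin28a was higher and Hic1 lower in Nxn-null RNA by the limma test. At E9.5, Igf2bp1 and Igf2bp3 were higher. All 4 calls were of 1.26-fold or less, and none was shared by both stages. The limma fit on all 4 arrays carried a dye term. A gene's own error, with 1 residual degree of freedom, is how far its dye-swap difference at E11.5 departed from that at E9.5. In limma it was pooled with the spread over all genes, which had 18.6 prior degrees of freedom and so dominates. The calls therefore rest little on the gene's own spread, and they compare the RNAs hybridised and not genotypes. None of the 4 calls held without the dye term, with median centring, with the log ratio of Feature Extraction or with any 1 array left out, a fit that has no dye term. Over all settings the limma adjusted p ranged over 0.0071 to 1 for Lin28a, 0.0348 to 1 for Hic1, 0.0035 to 0.929 for Igf2bp1 and 0.0213 to 0.967 for Igf2bp3.

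At E11.5 the Lin28a ratio was 0.40 and 0.27 on the 2 arrays, with a mean of 0.34 ± 0.09 (SD, n = 2 arrays; 1.26-fold; limma adjusted p = 0.0071). At E9.5 it was -0.33 and 0.16, with a mean of -0.08 ± 0.34 (limma adjusted p = 0.479). With the log ratio of Feature Extraction the E11.5 mean was 1.09 (limma adjusted p = 0.0971). Both arrays agreed in sign at E11.5 and disagreed at E9.5. The difference of the ratio between the stages was 0.42 (SE 0.11; limma adjusted p = 0.0136).

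The Hic1 ratio was -0.31 and -0.17 at E11.5, with a mean of -0.24 ± 0.10 (SD, n = 2 arrays; 1.18-fold lower; limma adjusted p = 0.0432). With median centring the E11.5 mean was -0.08. It was 0.29 and -0.05 at E9.5, with a mean of 0.12 ± 0.24 (limma adjusted p = 0.27). Here too the arrays had 1 sign at E11.5 and opposite signs at E9.5, and the difference between the stages was -0.35 (SE 0.10; limma adjusted p = 0.0244). When every probe was tested on its own, the E11.5 call of Hic1 was lost (adjusted p = 0.0513).

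Igf2bp1 had ratios of -0.06 and 0.18 at E11.5 and of 0.13 and 0.40 at E9.5, where the mean was 0.26 ± 0.19 (SD, n = 2 arrays; 1.20-fold; limma adjusted p = 0.0036). Igf2bp3 had ratios of -0.26 and 0.18 at E11.5 and of -0.07 and 0.45 at E9.5, where the mean was 0.19 ± 0.37 (SD, n = 2 arrays; 1.14-fold; limma adjusted p = 0.0305). Without E9.5 replicate 2, the E9.5 ratio was 0.13 for Igf2bp1 and -0.07 for Igf2bp3. For Igf2bp3 the arrays of E9.5 did not agree in sign, and in both genes replicate 2, with Nxn-null RNA in Cy3, gave the higher value at each stage. Other probes did not repeat the calls: the other 2 Igf2bp1 probes had mean E9.5 ratios of -0.05 and 0.14 and the other 2 Igf2bp3 probes had 0.12 and 0.15, with limma adjusted p of 0.651, 0.14, 0.199 and 0.129.

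No other of the 9 genes passed the test at a stage. Lin28b had ratios of 0.21 and 0.16 at E11.5 (mean 0.19 ± 0.03; limma adjusted p = 0.0811) and of -0.02 and 0.14 at E9.5. Wfikkn1 was above 0 on all 4 arrays, with 0.21 and 0.09 at E11.5 and 0.09 and 0.27 at E9.5 (limma adjusted p = 0.191 and 0.0507). Hmga2 showed a dye pattern, with 0.21 and -0.22 at E11.5 and 0.11 and -0.29 at E9.5, positive wherever Nxn-null RNA was in Cy5. Prtg had -0.05 and 0.22 at E11.5 and -0.24 and 0.34 at E9.5, positive wherever it was in Cy3. Igf2bp2 had 0.12 and 0.10 at E11.5 and -0.17 and 0.06 at E9.5. On other probes, 1 dim Lin28b probe had a mean E9.5 ratio of -0.37 and the dimmest Hmga2 probe one of -0.31 (limma adjusted p = 2.3e-04 and 0.0016 over probes). The brightest probes had 0.06 and -0.09, so probes of a gene disagreed. The dim Lin28b probe was well above background on 1 of 2 Nxn-null E9.5 arrays, so its ratio is close to the limit of the probe. The dimmest Hmga2 probe was well above background on 2 of 2 E9.5 arrays in each genotype.

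With 9 genes, each call is a large share, so the counts are given beside those over all genes. Nxn-null RNA had 1 of the 9 genes above and 1 below wild type at E11.5, where 3.67% of all genes were above and 5.63% below. The counts at E9.5 were 2 above and 0 below, where 9.9% of all genes were above and 14.8% below. The ratio differed between the stages for 2 of 9 genes, where 8.35% of all genes had a higher and 5.27% a lower ratio at E11.5. The median ratio of the 9 genes was 0.09 at E11.5 and 0.06 at E9.5, against 0.01 and -0.0007 over all genes. In the fit of the effect shared by both stages, on the 2 stage averages, limma called 0 of 17129 genes (lowest adjusted p = 0.397). Nxn itself was not called there, with a shared ratio of -1.16 (limma adjusted p = 0.397). The fit had 1 residual degree of freedom, so 0 calls do not show that a shared effect is absent. An unadjusted p under 0.05 was found for 1231 genes. Wfikkn1 was the 1 gene of the 9 among these 1231, with a shared ratio of 0.17 (limma unadjusted p = 0.0497, adjusted p = 0.694; above 0 on 4 of 4 arrays). The E11.5 and E9.5 calls use different arrays of the same fit.

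**Figure D3:**
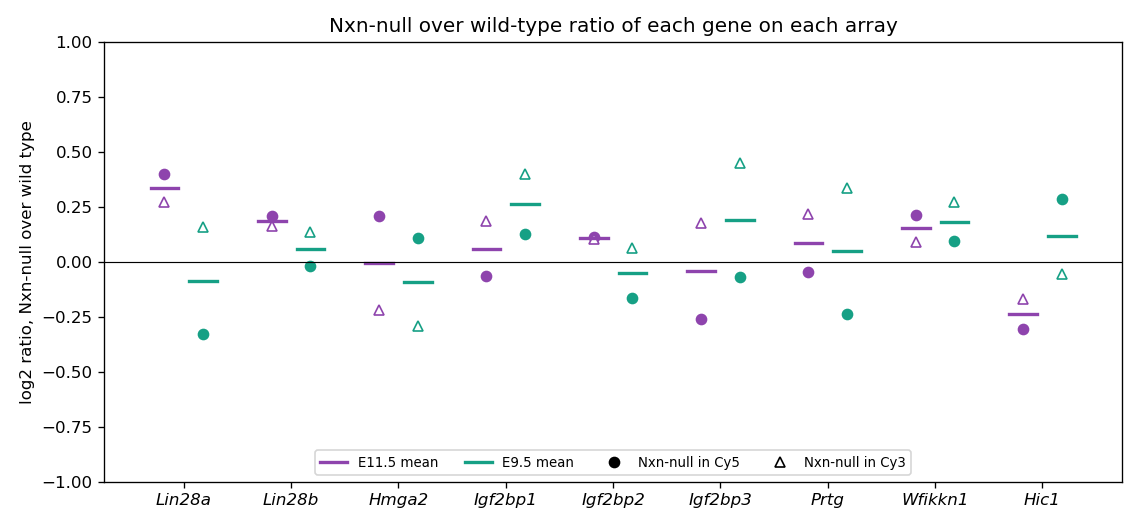
Log2 ratio of Nxn-null over wild type (vertical axis) of each gene on each array at E11.5 and E9.5; filled circles are arrays with Nxn-null RNA in Cy5, open triangles arrays with it in Cy3, and bars are means of 2 arrays. Lin28a at E11.5 has both points above 0 and Hic1 at E11.5 both below 0, while the Hmga2 and Prtg points of a stage lie on opposite sides of 0.

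In the plot of ratios by array, the largest single-array ratio in size was 0.45. The size of a ratio depended on the signals used for the dim genes: with the log ratio of Feature Extraction the E11.5 mean was 1.09 for Lin28a and 0.84 for Wfikkn1, against 0.34 and 0.15 here. Nxn lies on chromosome 11, as do Hic1 and Igf2bp1. By RefSeq annotation, 28 coding genes lie between Hic1 and Nxn and 256 between Igf2bp1 and Nxn. The part of this position in their ratios was not tested.

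The make-up of the RNAs also differed between groups. Of 14 yolk sac markers, 2 were lower in Nxn-null RNA at E11.5 and 14 at E9.5. The log2 of their summed intensity at E11.5 was 16.31 to 16.32 in Nxn-null RNA and 16.31 to 16.43 in wild-type RNA, and at E9.5 it was 14.12 to 14.38 in Nxn-null RNA and 17.38 to 17.40 in wild-type RNA. At E11.5 the yolk sac markers Apoa4 and S100g were well above background in neither genotype. Of 12 heart muscle markers, 5 were higher at E11.5 (summed level 16.70 to 16.71 in Nxn-null RNA and 16.60 to 16.63 in wild-type RNA) and 12 lower at E9.5 (15.26 to 15.45 in Nxn-null RNA and 17.01 to 17.06 in wild-type RNA). Of 12 neuron markers, 0 passed the test at E11.5 (16.33 to 16.39 in Nxn-null RNA and 16.29 to 16.37 in wild-type RNA) and 10 were higher at E9.5 (15.45 to 15.46 in Nxn-null RNA and 15.09 to 15.12 in wild-type RNA). Of 10 markers of primitive red cells, 9 were lower at each stage (17.95 to 18.37 in Nxn-null RNA and 19.35 to 19.47 in wild-type RNA at E11.5, and 17.78 to 18.001 in Nxn-null RNA and 18.62 to 18.81 in wild-type RNA at E9.5). Neural progenitor markers were higher for 0 of 9 genes at E11.5 (16.31 to 16.36 in Nxn-null RNA and 16.39 to 16.45 in wild-type RNA) and for 3 at E9.5 (16.10 to 16.10 in Nxn-null RNA and 15.86 to 15.94 in wild-type RNA). Of 9 tailbud markers, 2 were higher at E11.5 (11.47 to 11.53 in Nxn-null RNA and 11.32 to 11.34 in wild-type RNA), and at E9.5 1 was higher and 3 were lower (12.20 to 12.28 in Nxn-null RNA and 12.50 to 12.63 in wild-type RNA). The Y-linked Ddx3y, Eif2s3y and Kdm5d were well above background on 2 of 2 wild-type E11.5 arrays and on no array of the other groups. Xist was above background on 2 of 2 arrays of each other group and on no wild-type E11.5 array. Their E11.5 ratios were -2.97, -3.59 and -1.36 for the Y-linked genes and 5.83 for Xist. By these genes the wild-type E11.5 RNA differed in sex from the other groups. Sex therefore cannot be told apart from genotype at E11.5, or from stage in wild-type RNA, and its part was not tested. Between the stages, 10 of 12 heart muscle markers were at least 2-fold higher at E11.5 in Nxn-null RNA and 0 in wild-type RNA. Of 14 yolk sac markers, 5 were at least 2-fold higher at E11.5 in Nxn-null RNA and 11 at least 2-fold lower in wild-type RNA. Over all genes, 2.69% were at least 2-fold higher in Nxn-null RNA and 3.15% in wild-type RNA. At least 2-fold lower in wild-type RNA were 1.53%. The genotype ratios and the stage differences of both genotypes described above were measured in these same RNAs. Their part in the values of the 9 genes was not tested, and fewer cells of a type cannot be told apart from less RNA per cell.

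The lists that follow group genes by textbook roles around the 9 genes. Their counts are to be read beside the shares over all genes. At E11.5, 3.67% of all genes were higher and 5.63% lower in Nxn-null RNA, and at E9.5 9.9% were higher and 14.8% lower. Between the stages, 2.69% of all genes were at least 2-fold higher at E11.5 in Nxn-null RNA and 3.15% in wild-type RNA. At least 2-fold lower were 0.747% in Nxn-null RNA, 1.53% in wild-type RNA and 0.52% in both. Among 17 tested partners of Lin28 and let-7 processing factors, 0 were higher and 2 lower in Nxn-null RNA at E11.5, and 1 was higher and 1 lower at E9.5, with median ratios of -0.02 and -0.01. Of the 27 calls at a stage among the genes named from the 9 lists, none held with an array of that stage left out. Mir99ahg at E9.5 held only where an E11.5 array was left out, which keeps both E9.5 arrays. These fits have no dye term. Of the 12 such calls at E11.5 and the 15 at E9.5, 0 and 0 held without the dye term, 0 and 2 with the log ratio of Feature Extraction, 1 and 2 with median centring and 4 and 8 with the mean of all probes. Tut4, which adds uridines to let-7 precursors held by Lin28, had a ratio of -0.44 ± 0.0025 at E11.5 (limma adjusted p = 1.0e-04) and of -0.15 ± 0.21 at E9.5 (SD, n = 2 arrays). Ago2, the slicer of the silencing complex, had -0.22 ± 0.13 at E11.5 (limma adjusted p = 0.0339). At E9.5, Khsrp, which promotes let-7 processing, had -0.23 ± 0.09 and Dis3l2, the exonuclease that degrades uridylated let-7 precursors, had 0.20 ± 0.07 (limma adjusted p = 0.0111 and 0.0211). Between the stages, the list stayed near 0, with medians of -0.01 in Nxn-null RNA and 0.02 in wild-type RNA. Ago4 had the largest difference, 0.92 in Nxn-null RNA and 1.05 in wild-type RNA.

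Of 22 tested let-7 targets, 0 were higher and 1 lower at E11.5, and 3 were higher and 2 lower at E9.5, with median ratios of 0.0016 and 0.05. The insulin receptor Insr was lower at both stages (-0.33 ± 0.51 at E11.5 and -0.18 ± 0.37 at E9.5, SD, n = 2 arrays), with array spreads larger than the means. Without replicate 1 of the stage, the ratio was 0.03 at E11.5 and 0.08 at E9.5. At E9.5 the ubiquitin-conjugating enzyme Cdc34 (0.21 ± 0.27) was higher and the transcription factor Myc (-0.19 ± 0.38) was lower. Without E9.5 replicate 1 the Myc ratio was 0.08. Between the stages, 1 of 22 targets was at least 2-fold lower in both genotypes. This was Nr6a1 (germ cell nuclear factor), with -1.55 in Nxn-null RNA and -1.57 in wild-type RNA. Myc (-0.81 and -0.93) and Arid3a, a DNA-binding factor of early development (-0.81 and -0.98), were next, and the list medians were -0.29 and -0.22, against -0.01 and -0.03 over all genes.

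Of 3 tested long transcripts of let-7 loci, 2 were lower in Nxn-null RNA at each stage, with median ratios of -0.34 at E11.5 and -0.22 at E9.5. Mir99ahg had ratios of -0.39 ± 0.33 at E11.5 and -0.69 ± 0.18 at E9.5 (SD, n = 2 arrays; limma adjusted p = 2.9e-04 and 5.6e-08), and Mir100hg had -0.34 ± 0.19 and -0.22 ± 0.20 (limma adjusted p = 7.0e-04 and 0.0136). In the RefSeq table Mirlet7a-2 lies inside Mir100hg, and Mirlet7f-2 and Mir98 lie inside Huwe1, whereas Mirlet7c-1 lies outside the annotated Mir99ahg. Huwe1, a ubiquitin ligase, had ratios of -0.10 at both stages and did not pass the test. Between the stages, Mir100hg was higher at E11.5 by 1.47 in Nxn-null RNA and 1.59 in wild-type RNA, and Mir99ahg by 0.85 and 0.54. Huwe1 had 0.10 and 0.10, and -0.28 and -0.24 with the processed signals. These are long transcripts, and mature let-7 was not measured.

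Of 5 RNAs known to be bound by Igf2bp proteins, 1 was higher and 0 lower in Nxn-null RNA at E11.5, and 1 was higher and 2 lower at E9.5, Myc among them, with median ratios of -0.07 and -0.15. Actb, beta-actin, was higher in Nxn-null RNA at both stages (0.40 ± 0.40 at E11.5 and 0.50 ± 0.24 at E9.5, SD, n = 2 arrays). Cd44, a hyaluronan receptor, had 0.05 ± 0.11 at E11.5 and was lower at E9.5 (-0.27 ± 0.06; limma adjusted p = 0.0028). H19 and Igf2, neighbouring imprinted growth genes, did not pass the test, and were higher at E11.5 than at E9.5: H19 by 0.99 in Nxn-null RNA and 1.02 in wild-type RNA, and Igf2 by 0.76 and 0.71.

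Around Wfikkn1, 0 of 13 genes of the Gdf11 and myostatin pathway passed the test at E11.5 and 1 was higher at E9.5, the signal transducer Smad3 (0.22 ± 0.14, SD, n = 2 arrays; limma adjusted p = 0.0157), with median ratios of 0.01 and -0.0020. Wfikkn2, the paralogue of Wfikkn1, ran opposite to it between the stages. It was higher at E11.5 by 1.31 in Nxn-null RNA, where 1 of 2 E9.5 arrays was above background, and at least 2.32-fold higher in wild-type RNA, where no E9.5 array was. Around Prtg, 1 of 7 tested relatives and ligands was higher in Nxn-null RNA at E11.5 and 2 at E9.5, with median ratios of 0.0075 and 0.03. Rgmb, a ligand of the related receptor neogenin, was higher at both stages (0.29 ± 0.12 and 0.27 ± 0.34, limma adjusted p = 0.0063 and 0.0050), and Ntn1, a ligand of the related receptor Dcc, at E9.5 (0.30 ± 0.26, limma adjusted p = 0.0015). Igdcc3 was lower at E11.5 than at E9.5 by a difference of -2.00 in Nxn-null RNA and -2.12 in wild-type RNA, while its paralogue Igdcc4 had 0.76 and 0.70 and Rgmb 1.26 and 1.24. Around Hic1, 0 of 7 partners and targets passed the test at E11.5 and 1 was higher at E9.5, with median ratios of 0.0076 and 0.0074. This was the tumour suppressor Trp53, with -0.05 ± 0.26 at E11.5 and 0.26 ± 0.22 at E9.5 (SD, n = 2 arrays; limma adjusted p = 0.0044 at E9.5).

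Some early-embryo genes were lower at E11.5 than at E9.5, and most of the later factors were higher. Of 8 tested pluripotency and early-embryo genes, 2 were at least 2-fold lower at E11.5 in both genotypes: Sall4 (-1.75 in Nxn-null RNA and -2.12 in wild-type RNA) and Nr6a1. Dnmt3b, the de novo DNA methyltransferase, had -0.86 and -0.95, and Utf1, a chromatin factor of stem cells, had 0.24 and -0.03. Between the genotypes, 2 of the 8 were higher in Nxn-null RNA at E11.5 and 0 passed the test at E9.5, with median ratios of 0.10 and 0.03. These were Sall4 and Utf1 (0.30 ± 0.18 and 0.31 ± 0.32, SD, n = 2 arrays; limma adjusted p = 0.0085 and 0.0024). Their E9.5 ratios were -0.08 ± 0.14 and 0.04 ± 0.43. Of 6 tested later factors, 4 were at least 2-fold higher at E11.5 than at E9.5 in Nxn-null RNA and 5 in wild-type RNA, led by the nuclear factor I genes Nfib (2.13 and 2.18), Nfia (2.08 and 2.17) and Nfix (2.05 and 2.11). Of the same 6, 0 were higher and 3 lower in Nxn-null RNA at E11.5, and 1 was higher and 1 lower at E9.5, by limma, with median ratios of -0.22 and -0.03. Nfib was lower at both stages (-0.25 ± 0.10 and -0.20 ± 0.03), Zbtb20 at E11.5 (-0.29 ± 0.03), and Sox9, a factor of cartilage and glia, was lower at E11.5 (-0.26 ± 0.13) and higher at E9.5 (0.29 ± 0.29).

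**Figure D4:**
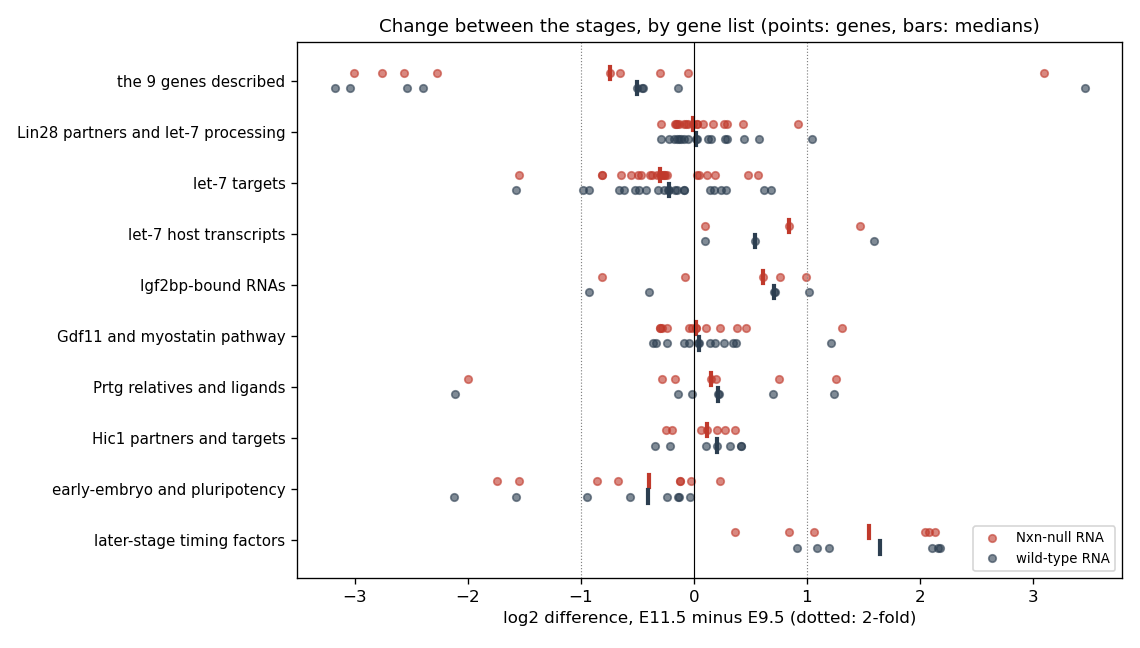
Log2 difference of E11.5 minus E9.5 (horizontal axis) of each gene (points) in the 9 genes and the 9 lists around them, for Nxn-null RNA and wild-type RNA; bars are medians and dotted lines mark 2-fold. The later factors lie to the right of 0 and the let-7 processing factors cluster near 0; the 9 genes were chosen by this difference, so their spread is set by that choice.

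The plot of stage differences by list sets the 9 genes beside the genes around them. The median difference was -0.74 in Nxn-null RNA and -0.51 in wild-type RNA for the 9 genes, 1.56 and 1.65 for the later factors and -0.40 and -0.40 for the early-embryo list. These lists were drawn up with earlier results of the same arrays known, and their medians are descriptions.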

How the data were processed

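Two-colour Agilent whole mouse genome arrays measured cRNA from 500 ng of total RNA, amplified from an oligo-dT primer per the labels' protocols. The deposited scanner files hold spot intensity per channel on a linear scale with local background, and a log10 ratio of the processed signals, written by Agilent Feature Extraction (version 9.1.3.1 per the file headers, 9.5.3.1 per the submitters' processing notes). The deposited value table equalled the log10 ratio of red over green processed signals, turned to Nxn-null over wild type, within 1e-04 for 99.995% to 100% of 40929 probes, so it was not centred further. Its column medians were -0.0347 and 0.0210 at E11.5 and -0.0136 and 0.0408 at E9.5.

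Mean intensities were background-corrected by normexp (offset 50) on the local median background and loess-normalized within arrays, control spots having weight 0 (limma 3.58.1, R 4.3.3, package data.table, version 1.17.8, jsonlite 2.0.0). Figures used Python 3.11.15 and matplotlib 3.10.9. Single-channel levels came from Aquantile normalization. Of 41174 gene probes, 302 with an outlier mark were left out, and 24979 were kept, each clearly above background for 1 or both genotypes on the 2 arrays of some stage. The brightest of these stood for each of 17129 genes, of which 5718 had several probes and 14337 a current symbol. RefSeq names (GRCm38.p6) matched 22951 probes by accession, 6659 by current symbol, 3109 by older symbol and 61 by a name shared with a matched accession, and 8394 kept the name in the files. A signal is called well above background as Feature Extraction marked it, and saturated spots numbered 0 to 7 on an array.

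The genotype ratio at each stage and its difference between the stages were tested with limma on the 4 arrays with a dye term (1 residual and 18.6 prior degrees of freedom). The shared effect was tested on the 2 stage averages (1 residual and 2.84 prior degrees of freedom). Benjamini-Hochberg adjustment was over all genes at 0.05. The stage difference is a description, counted at 2-fold. All 4 arrays lie on 1 slide with 1 scan time. Fits were tested on simulated data. The number of arrays limits the precision. Settings tried were the offset, signals, normalization, filter, probe choice, dye term, moderation and each array left out.

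The 9 genes and the lists were chosen with earlier results of these data known. The text names every probe of the 9 genes and Nxn. From each list it names at most 4 genes past the threshold, by size of the ratio, and at most 3 by size of the stage difference, and the 5 genes nearest in profile to Lin28a and to Lin28b. These rules also name 1 further gene, which is not reported here. The marker lists of cell types are given as counts and summed levels.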

Additional observations from a re-analysis of the deposited data

Results flagged for a closer look

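The ratio of Nxn-null over wild type differed between the stages, by the limma difference term on 4 arrays, for Lin28a and Hic1 and for 6 list genes. The difference, E11.5 minus E9.5 on the log2 scale, was 0.42 for Lin28a (limma adjusted p = 0.0136; ratios 0.34 at E11.5 and -0.08 at E9.5) and -0.35 for Hic1 (limma adjusted p = 0.0244; -0.24 and 0.12). It was -0.29 for Tut4 (limma adjusted p = 0.0464; -0.44 and -0.15), 0.31 for Mir99ahg (limma adjusted p = 0.0278; -0.39 and -0.69) and 0.33 for Cd44 (limma adjusted p = 0.0161; 0.05 and -0.27). For Trp53 it was -0.30 (limma adjusted p = 0.0254; -0.05 and 0.26), for Sall4 0.38 (limma adjusted p = 0.0156; 0.30 and -0.08) and for Sox9 -0.55 (limma adjusted p = 1.9e-04; -0.26 and 0.29). None of the 8 differences passed the test with any 1 array left out, without the dye term, with median centring or with the log ratio of Feature Extraction.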

How the results depend on the processing

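The stage differences of Lin28a, Lin28b, Prtg, Wfikkn1 and Hic1 kept their direction under every setting tried, between -4.96 and -1.04 for the 4 lower genes and between 2.98 and 3.67 for Hic1. Genes at least 2-fold apart between the stages numbered 588 in Nxn-null RNA and 802 in wild-type RNA, and rose to 1713 and 2111 with the processed signals.

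The genotype calls depended on the processing. Of all genes, 1593 were called at E11.5, 4230 at E9.5 and 2334 for the difference between the stages. Numbers in the same order were 150, 1523 and 565 with the log ratio of Feature Extraction, 219, 679 and 403 with median centring, and 28, 458 and 150 without the dye term. With each array left out they ranged over 16 to 144, 264 to 475 and 105 to 221, in fits without a dye term. The share called higher at E11.5 was 628 of 1593 genes, and 118 of 219 with median centring; at E9.5 it was 1696 of 4230, and 155 of 679 with median centring, 440 of 1523 with the log ratio of Feature Extraction. Of the 9 genes, 2 were called in each of the 3 comparisons. This became 0 in each with the log ratio of Feature Extraction, with median centring, without the dye term and, over a range of 0 to 0, with each array left out. It became 1, 1 and 0 with an offset of 10, 0, 1 and 0 without a filter, and 1, 0 and 0 with the mean of all probes. The shared effect had 0 calls under every setting, Nxn included, so its 0 calls do not show that a shared effect is absent. Wfikkn1 at E9.5 passed the test when both genotypes had to be above background (limma adjusted p = 0.0493), which tests fewer genes. The cause of the other changes was not tested.

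Genotype ratios that changed sign were these. With an offset of 10 the Wfikkn1 difference between the stages was 0.0179, and with the log ratio of Feature Extraction it was 0.65 and the Hmga2 E11.5 ratio 0.000354. With median centring the shared ratio was 0.0767 for Hmga2 and 0.0511 for Hic1, the E11.5 ratio 0.19 for Hmga2 and 0.12 for Igf2bp3, and the E9.5 ratio 0.0135 for Igf2bp2. With the mean of all probes Lin28b had a shared ratio of -0.0496 and an E9.5 ratio of -0.14. With each array left out, the E11.5 ratio ranged over -0.22 to 0.21 for Hmga2, -0.0638 to 0.18 for Igf2bp1, -0.26 to 0.18 for Igf2bp3, -0.0474 to 0.22 for Prtg and -0.69 to 0.0290 for Insr. The E9.5 ratio ranged over -0.33 to 0.16 for Lin28a, -0.0184 to 0.14 for Lin28b, -0.29 to 0.11 for Hmga2, -0.17 to 0.0645 for Igf2bp2, -0.0704 to 0.45 for Igf2bp3, -0.24 to 0.34 for Prtg, -0.0526 to 0.29 for Hic1, -0.44 to 0.0787 for Insr and -0.45 to 0.0793 for Myc. The difference between the stages ranged over -0.13 to 0.30 for Hmga2, -0.49 to 0.0284 for Igf2bp3, -0.25 to 0.32 for Prtg and -0.12 to 0.0591 for Wfikkn1. The shared ratio ranged over -0.15 to 0.0597 for Hmga2, -0.0277 to 0.0873 for Igf2bp2, -0.0562 to 0.20 for Igf2bp3, -0.0756 to 0.21 for Prtg and -0.15 to 0.0233 for Hic1. The stage difference of Hmga2 turned to 0.0214 in Nxn-null RNA with median centring, and with an array left out it reached 0.0347 in Nxn-null RNA and 0.00369 in wild-type RNA. That of Huwe1 turned to -0.28 in Nxn-null RNA and -0.24 in wild-type RNA with the processed signals, and in wild-type RNA to -0.10 with the mean of all probes and -0.0683 without E11.5 replicate 2. Median centring moved the median of all genes to 0.10 at E11.5 and 0.05 at E9.5, from 0.01 and -0.0007 with loess.

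Each ratio already pairs the genotypes within an array. No paired analysis was possible because the labels give no numbers that tie an array of one stage to an array of the other, beyond the dye orientation that the fit holds as the dye term. A block for slide or scan has no value, since all 4 arrays share 1 slide and 1 scan time. Dim probes limit Lin28a and Wfikkn1 in wild-type E11.5 RNA and the other Lin28b probes.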
